A study of Mus musculus with 8 samples.

Results

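Contacts between stretches of DNA that both lie outside protein-coding genes were examined in mouse liver. They were taken from paired-end tags (PETs) of a ChIA-PET experiment on RNA polymerase II (Pol II), in which chromatin is precipitated with an antibody, DNA ends held in one complex are joined through a linker, and a tag is read from each side. A contact was a nuclear PET with both ends on 1 chromosome, more than 8 kb and at most 100 kb apart, and with neither end inside the annotated span of a protein-coding gene or within 2.5 kb of it. These limits gave 479 contacts among 3075 short PETs (8 to 100 kb) and 2751289 nuclear PETs. The shortest contact had 8028 bp between its ends, and the nearest PET left out below the limit had 8000 bp. The longest contact had 99372 bp and the nearest one left out above had 100565 bp. The contact end nearest to a gene was 2522 bp from it, and the nearest end left out was at 2480 bp.

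All animals were wild-type C57BL/6 mice, 3 to 6 months old, kept under alternating light and dark with food and water freely available. Livers were taken at ZT06, the middle of the day, or ZT18, the middle of the night (ZT counts hours from lights on), and chromatin of 3 to 7 livers was combined before precipitation with antibody 8WG16. Of the 8 libraries, 4 belonged to experiment 1 (2 by day, 2 by night), and experiments 2 and 3 contributed 1 day and 1 night library apiece. Chromatin was crosslinked with EGS, a protein crosslinker with a long arm, and formaldehyde in experiments 1 and 3 (dual crosslinking), and with formaldehyde alone in experiment 2 (single crosslinking). The deposited table marks each PET with its experiment and linker but with no library, so day and night were not compared here, values are given for each experiment, and the spread between replicate libraries is unknown. Intervals are at 95% and reflect only counting error, and the tests count PETs, not animals. Crosslinking was single in 1 experiment only, so protocol and experiment cannot be told apart.

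The experiments held 474466, 1438852 and 837971 nuclear PETs, and their short PETs numbered 714, 397 and 1964. The tissue label was checked by the density of PET ends over marker genes relative to the nuclear mean. The median over 5 hepatocyte genes (Alb, Apoa1, Apoa2, Ttr and Fgb) was 53.5, 8.10 and 13.4 in experiments 1, 2 and 3, against 1.17, 1.35 and 1.599 over 16 genes of other liver cells.

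Intergenic DNA holds many distal regulatory elements. Pol II is found at many active enhancers, where it makes short, unstable RNAs, and at the promoters of long noncoding RNAs (lncRNAs), transcripts that code for no protein and are often made near the gene they flank. An intergenic element can touch a promoter, and it can also touch another intergenic element. Hepatocyte identity is set by factors such as the C/EBP, FOXA and nuclear receptor proteins, whose genes lie among such elements. No marks of enhancers were used here, and no end is called an enhancer.

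Noncoding genes stood at many of the ends, and the promoters of 4 are shown. Of the 21 noncoding genes with ends of 2 or more contacts, 14 were matched in the RefSeq promoter table, and 7 had a contact end within 2.5 kb of an annotated start. Of these 7, the 3 with the nearest contact ends are shown, and Chaserr for having the most PET ends in its window, a choice made after the values were seen. The 4 are Chaserr, a lncRNA known to restrain its neighbour Chd2 (a chromatin remodeller), 2310015A10Rik, Gm51475 near Cebpa, and Gm30509 near Sik1. Each window runs from 250 bases before to 50 bases after the start, on the minus strand, and is written 5′ to 3′ from RefSeq on GRCm38.p6. Capitals mark matches, on either strand, to the E-box CACGTG (bound by CLOCK and BMAL1 among others), the FOXA motif TGTTTAC or the nuclear receptor motif AGGTCA. The windows are chr7:73558346-73558645, chr12:80132795-80133094, chr7:35130802-35131101 and chr17:31871054-31871353, in the order of the lines.
Chaserr: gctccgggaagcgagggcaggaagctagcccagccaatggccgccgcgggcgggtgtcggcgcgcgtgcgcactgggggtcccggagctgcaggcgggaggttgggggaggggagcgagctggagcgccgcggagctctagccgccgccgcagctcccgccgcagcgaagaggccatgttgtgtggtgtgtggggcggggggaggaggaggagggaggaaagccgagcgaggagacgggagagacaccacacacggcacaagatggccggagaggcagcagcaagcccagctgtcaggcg
2310015A10Rik: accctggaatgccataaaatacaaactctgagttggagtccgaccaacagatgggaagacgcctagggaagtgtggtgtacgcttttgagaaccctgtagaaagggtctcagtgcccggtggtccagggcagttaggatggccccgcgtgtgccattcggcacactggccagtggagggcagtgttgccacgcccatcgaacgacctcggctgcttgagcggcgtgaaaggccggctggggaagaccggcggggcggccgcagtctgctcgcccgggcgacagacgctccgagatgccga
Gm51475: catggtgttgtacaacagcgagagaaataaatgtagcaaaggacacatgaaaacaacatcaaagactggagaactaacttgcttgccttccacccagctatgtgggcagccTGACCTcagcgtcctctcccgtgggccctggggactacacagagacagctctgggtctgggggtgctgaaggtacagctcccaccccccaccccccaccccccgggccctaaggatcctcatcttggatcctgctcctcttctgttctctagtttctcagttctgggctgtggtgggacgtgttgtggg
Gm30509: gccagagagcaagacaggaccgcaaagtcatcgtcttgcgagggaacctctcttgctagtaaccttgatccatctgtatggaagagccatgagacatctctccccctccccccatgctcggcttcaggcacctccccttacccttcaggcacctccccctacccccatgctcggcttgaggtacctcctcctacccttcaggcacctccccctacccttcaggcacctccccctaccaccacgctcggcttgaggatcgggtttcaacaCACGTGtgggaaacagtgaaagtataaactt

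The Gm30509 window held 1 E-box and the Gm51475 window held 1 AGGTCA match, and no other match stood in the 7 windows, of which those of Gm31718, Gm39923 and Gm39071 are not shown. Over all 32851 promoter windows of 300 bases in the table, 7.15% held the E-box, 3.65% the FOXA motif and 16.3% the AGGTCA motif, so a single match is common. The contact end nearest to a start was 1293 bp away at Chaserr, 438 bp at 2310015A10Rik, 541 bp at Gm51475 and 587 bp at Gm30509. The Chaserr window was itself captured, with 14, 5 and 8 nuclear PET ends inside it in experiments 1, 2 and 3. The 2310015A10Rik window held 3, 1 and 4, the Gm51475 window 0, 0 and 1, and the Gm30509 window 0 in each experiment. These counts are not scaled to depth, which was greatest in experiment 2. At Gm30509 the contacts thus ended beside the window and not in it.

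Contacts with both ends intergenic were more frequent than chance ligation gave, and less so than other short PETs. Chance PETs were all pairings of the read-1 end of one PET with the read-2 end of another in the same experiment and linker, scaled to the number of PETs. Their ends follow the density of captured ends, but the pairing takes no account of distance along the chromosome. A ratio above 1 is thus an excess over random ligation, and not over what nearness alone gives. In experiment 1, 69 contacts were seen where chance gave 10.5, which is 6.55 times as many (5.10 to 8.29). In experiment 2, 115 were seen where chance gave 43.1, or 2.67 times as many (2.20 to 3.199). In experiment 3, 295 were seen where chance gave 17.8, or 16.6 times as many (14.7 to 18.6). Two-sided exact Poisson tests gave p = 2e-32, 2.1e-19 and 6.6e-241 after Benjamini-Hochberg adjustment over the 3 experiments. Experiment 2, the deepest of the 3, had the lowest ratio.

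PETs with 1 intergenic end had ratios of 27.5 (23.7 to 31.8), 3.70 (2.92 to 4.62) and 32.6 (29.7 to 35.8) in experiments 1, 2 and 3. Those with no intergenic end had 33.4 (30.4 to 36.6), 4.90 (4.25 to 5.62) and 43.9 (41.5 to 46.4). As a share of short PETs, the contacts came to 9.66% (7.60 to 12.1%) in experiment 1, to 29.0% (24.6 to 33.7%) in the second and to 15.02% (13.5 to 16.7%) in the third. Among short chance PETs the shares were 33.9%, 40.8% and 29.98%, higher in all 3 experiments (two-sided exact binomial tests, adjusted p = 1.2e-51, 1.1e-06 and 3.6e-53).

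The excess was highest at short range. In experiment 1 the ratio was 12.6 (8.22 to 18.4) between 8 and 20 kb, 7.12 (4.65 to 10.4) between 20 and 50 kb and 3.53 (2.06 to 5.65) between 50 and 100 kb. In experiment 2 it was 6.96 (5.07 to 9.31), 2.39 (1.66 to 3.32) and 1.59 (1.11 to 2.21) in the same classes. In experiment 3 it was 42.3 (35.1 to 50.5), 16.4 (13.4 to 19.96) and 8.28 (6.49 to 10.4). The median distance of the contacts was 25.4, 27.3 and 24.4 kb. The share between 8 and 20 kb was 37.7%, 39.1% and 41.4%, and Fisher's exact tests against the other short PETs of the same experiment did not pass the threshold (adjusted p = 0.61, 0.60 and 0.60).

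**Figure D1:**
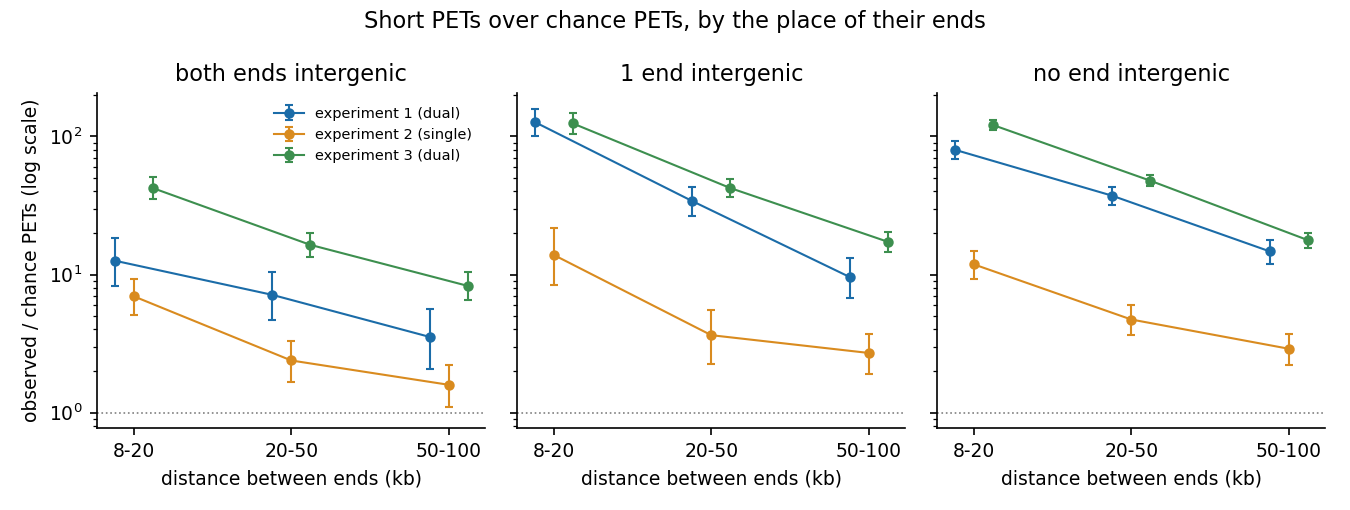
Observed over chance PETs (y axis, log scale) by distance between the ends in kb (x axis), for PETs with both ends, 1 end or no end intergenic, with 1 point per experiment and exact 95% Poisson intervals as bars. Between 8 and 20 kb the contacts with both ends intergenic had ratios of 12.6, 6.96 and 42.3 in experiments 1, 2 and 3, and in each experiment the ratio fell with distance toward the dotted line at 1.

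The contacts lay closer to protein-coding genes than chance PETs of the same class. The median distance of an end to the nearest gene was 51.7 kb in experiment 1, 95.7 kb in experiment 2 and 53.9 kb in experiment 3, and among chance PETs 203, 169 and 129 kb. At least 1 end lay within 10 kb of a gene in 19 of 69 contacts of experiment 1 (27.5%, 17.5 to 39.6%), against 9.74% by chance. In experiment 2 this held for 20 of 115 (17.4%, 10.96 to 25.6%) against 8.87%, and in experiment 3 for 65 of 295 (22.03%, 17.4 to 27.2%) against 11.9%. Exact binomial tests gave adjusted p = 3.4e-05, 0.0044 and 2.8e-06. With 1 of the linker codes alone (ATGT), the share was no longer past the threshold in experiments 2 and 3 (13.2% and 16.1%, exact binomial tests, adjusted p = 0.39 and 0.22).

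**Figure D2:**
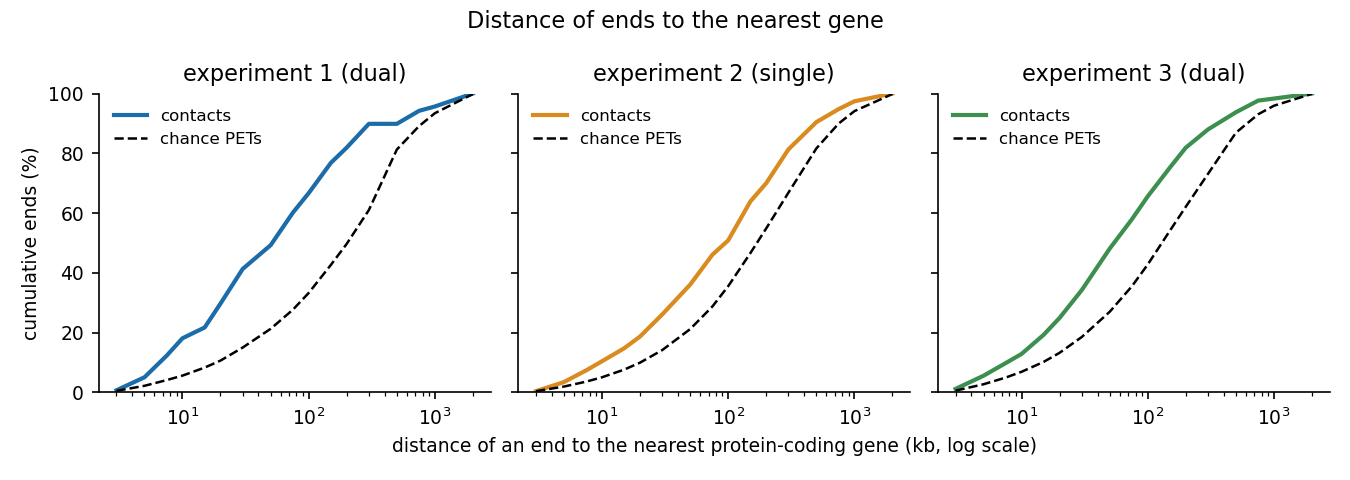
Cumulative share of ends (y axis, percent) by distance to the nearest protein-coding gene in kb (x axis, log scale), for contacts with both ends intergenic (solid) and chance PETs of the same class (dashed), 1 panel per experiment. The solid curve lies to the left of the dashed one in each panel, with medians of 51.7, 95.7 and 53.9 kb against 203, 169 and 129 kb.

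The nearest gene was itself dense in PET ends more often than by chance in experiments 1 and 3, though in a minority of contacts. A gene was taken as dense when its span and 2.5 kb either side held more than 2 times the nuclear mean of ends per base, a measure chosen after the data were seen. At least 1 end had such a gene as its nearest in 29 of 69 contacts of experiment 1 (42.0%, 30.2 to 54.5%), against 20.01% by chance (adjusted p = 4.3e-05, exact binomial test). In experiment 3 this held for 108 of 295 (36.6%, 31.1 to 42.4%) against 22.1% (exact test, adjusted p = 6.1e-08). In experiment 2 it held for 6 of 115 (5.22%, 1.94 to 11.01%) against 6.24% (exact test, adjusted p = 0.85). Chance was thus far lower there, so the same cut-off is not alike between experiments. With the linker code ATGT alone, experiment 2 had 23.7% against 12.8% (exact binomial test, adjusted p = 0.052).

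The contacts had 506 different nearest genes, and 370 of the 479 (77.2%) had the same nearest gene at both ends. That share was not counted among chance PETs, so it is a description only. The nearest gene's start faced an end in 240 contacts, against 229.8 by chance, and its far side in 201 against 197.6, over genes with an annotated strand. In 434 contacts no whole protein-coding gene lay between the ends, and 45 spanned 1 or more, up to 4. The share without a gene between was 91.3%, 90.4% and 90.5% in experiments 1, 2 and 3, against 93.7%, 93.8% and 91.6% by chance, and the exact binomial tests did not pass the threshold (adjusted p = 0.46 in each). Against chance PETs weighted to the observed distances (95.7%, 95.7% and 94.7%) the shares were lower in experiments 2 and 3 (exact binomial tests over the 3 experiments, adjusted p = 0.12, 0.026 and 0.011). With a minimum distance of 4 kb the direction turned, and in experiment 3 the share was above chance (95.5% against 92.3%, exact binomial test, adjusted p = 0.0058).

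Noncoding genes, mostly lncRNAs, stood at the ends more often than chance in experiment 3. A noncoding gene or its 2.5 kb flank held at least 1 end of 144 of 295 contacts there (48.8%, 43.0 to 54.7%), against 33.9% by chance (exact binomial test, adjusted p = 4.1e-07). Experiment 1 had 28 of 69 (40.6%, 28.9 to 53.1%) against 29.1% (exact test, adjusted p = 0.069), and experiment 2 had 39 of 115 (33.9%, 25.3 to 43.3%) against 29.5% (adjusted p = 0.31). Summed over the experiments, lncRNAs were at an end of 179 contacts against 129.9 by chance, pseudogenes at 27 against 22.7, and small or other RNAs at 11 against 9.003. In experiment 3 lncRNAs were at 124 against 85.4. Contacts with both ends over 1 lncRNA, counted after the data were seen, numbered 38 in experiment 3 (12.9%, 9.28 to 17.2%) against 6.05% (exact test, adjusted p = 3.9e-05), 8 in experiment 1 (11.6%) against 5.67% (adjusted p = 0.089) and 6 in experiment 2 (5.22%) against 5.54% (adjusted p = 1). Chance PETs weighted to the observed distances gave higher shares, of 7.04%, 7.06% and 7.94% in experiments 1, 2 and 3. Against these, only experiment 3 passed the threshold (exact binomial tests, adjusted p = 0.23, 0.58 and 0.01). With a minimum distance of 4 kb and without this weighting, experiment 2 had 31 of 273 (11.4%) against 5.82% (exact test, adjusted p = 0.0006). At 4 kb, experiment 1 had 17 of 124 (13.7%) against 6.06% (exact binomial test, adjusted p = 0.0018).

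Ends of contacts fell at 252 noncoding genes, of which 213 were lncRNAs, 26 pseudogenes and 13 small or other RNAs. Gm35338, between Spag9 and Tob1 (an antiproliferative gene), had 3 contacts, all in experiment 3. A pair of these started 16 bp apart, at 94144760 and 94144776 on chromosome 11, with different linker codes, and ended at 94159399 and 94162326, so both lay within the lncRNA. Its ends per kb, counted over the gene and 2.5 kb either side, were 1.74, 1.37 and 1.82 in experiments 1, 2 and 3. Such values are not scaled to depth, and the nuclear means were 0.349, 1.06 and 0.616 per kb. Gm35223 and Gm26608, near Insig1 (a gene that holds back sterol synthesis), had 2 contacts in experiment 3, which both ended 15.5 to 16.0 kb from Insig1. Nuclear ends per kb over Gm26608 and 2.5 kb either side were 8.87, 2.96 and 3.45. The gene is 1.086 kb long, so most of the counted stretch was flank.

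Chaserr had 1 contact in experiment 1, over 49.6 kb, and 1 in experiment 2, over 70.1 kb. Both led away from Chd2, to 73609255 and 73619227 on chromosome 7. Between 50 and 100 kb, contacts of experiment 2 were only 1.59 times as many as chance gave (1.11 to 2.21). At that ratio, chance PETs outnumber the excess. Whether the PET of 70.1 kb at Chaserr is a chance ligation was not tested. With its 2.5 kb flanks, Chaserr held 3.14, 2.58 and 3.39 ends per kb in experiments 1, 2 and 3, against nuclear means of 0.349, 1.06 and 0.616. 2310015A10Rik had 1 contact in experiment 1 and 1 in experiment 3. The ends of the former were nearest to Gm52006 (3.46 kb) and Actn1 (21.3 kb). The latter began 4.17 kb from Zfp36l1 (an RNA-binding protein that shortens mRNA lifetimes). The densities over 2310015A10Rik and its flanks were 4.34, 1.97 and 2.89 per kb, against the same nuclear means. Neat1, the RNA scaffold of paraspeckles and an abundant liver transcript, had 1 end of 1 contact in experiment 3, over 12.7 kb.

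By the median, ends of the contacts lay in denser neighbourhoods than chance in experiment 3. Other nuclear ends of the same experiment were counted within 2.5 kb of both ends. The median sums were 6, 13 and 9 in the 3 experiments, and among chance PETs 4, 13 and 7. In experiment 3, 181 of 295 contacts (61.4%, 55.5 to 66.9%) were above the chance median, against 42.8% of chance PETs (exact binomial test, adjusted p = 5.9e-10). Experiment 1 had 41 of 69 (59.4%, 46.9 to 71.1%) against 46.2% (exact test, adjusted p = 0.045), a call that did not hold against chance PETs weighted to the observed distances (50.4%, exact test, adjusted p = 0.15). With a window of 1 kb its share was 37.7% against 41.2% (exact test, adjusted p = 0.63). Experiment 2 had 47 of 115 (40.9%, 31.8 to 50.4%) against 47.7% (exact test, adjusted p = 0.16).

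**Figure D3:**
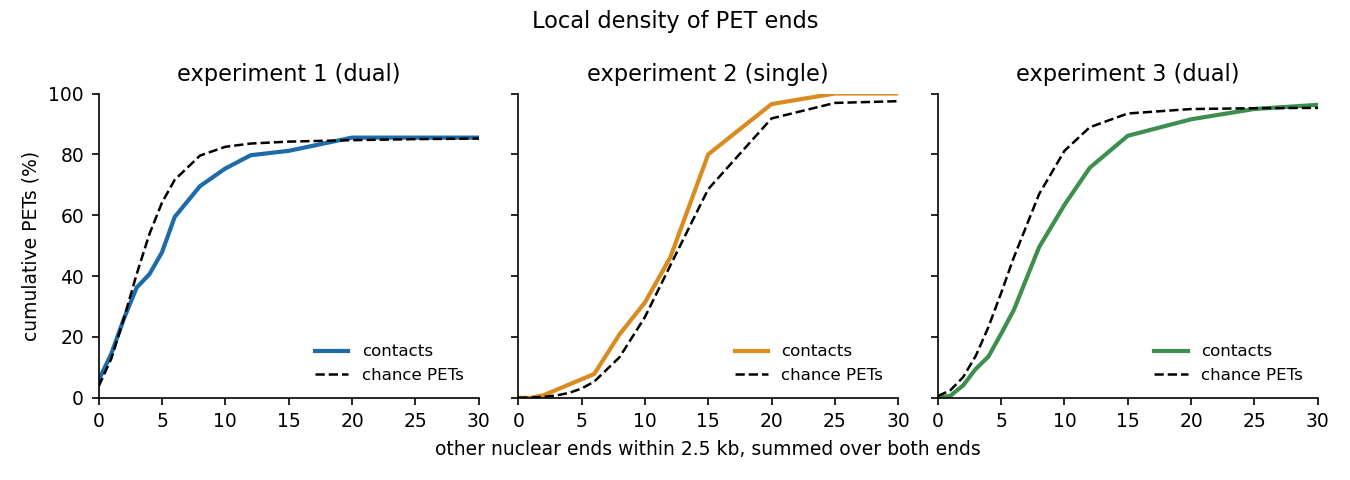
Cumulative share of PETs (y axis, percent) by the number of other nuclear ends within 2.5 kb, summed over both ends (x axis, up to 30), for contacts with both ends intergenic (solid) and chance PETs of the same class (dashed). The solid curve lies below the dashed one over most of the range in experiment 3 (medians 9 and 7), and in experiment 2 the medians are the same (13 and 13). Past the axis the order is the reverse. By 100 ends the contacts reach 97.1%, 100% and 99.7% in experiments 1, 2 and 3, and chance PETs 86.1%, 97.7% and 95.7%. A larger share of chance PETs thus lies in the very densest places.

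Relative to the nuclear mean of each experiment, the median contact had 1.30 times the mean density at its ends. At exactly this value stood 32 contacts, all in experiment 3, and the first 5 in genome order lay beside Ackr3 (a chemokine scavenging receptor), Macir, Zfp648, Erv3 and Ahcy (S-adenosylhomocysteine hydrolase). The densest contact was at 330 times the mean, in experiment 1, with 1151 other ends at 98662629 on chromosome 2, 1031 kb from Lrrc4c, and 0 at the other end. How tags were placed there was not tested, so this contact is uncertain. Without the 20 densest bins of 10 kb, experiment 1 had 68 contacts against 9.14 by chance, a ratio of 7.44. The next contacts were at the Mir122 locus, at 84.9 times the mean in experiment 1 and 22.9 in experiment 3. Contacts beside Rxra (18.4) and Ppara (16.9), both in experiment 1, came next.

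**Figure D4:**
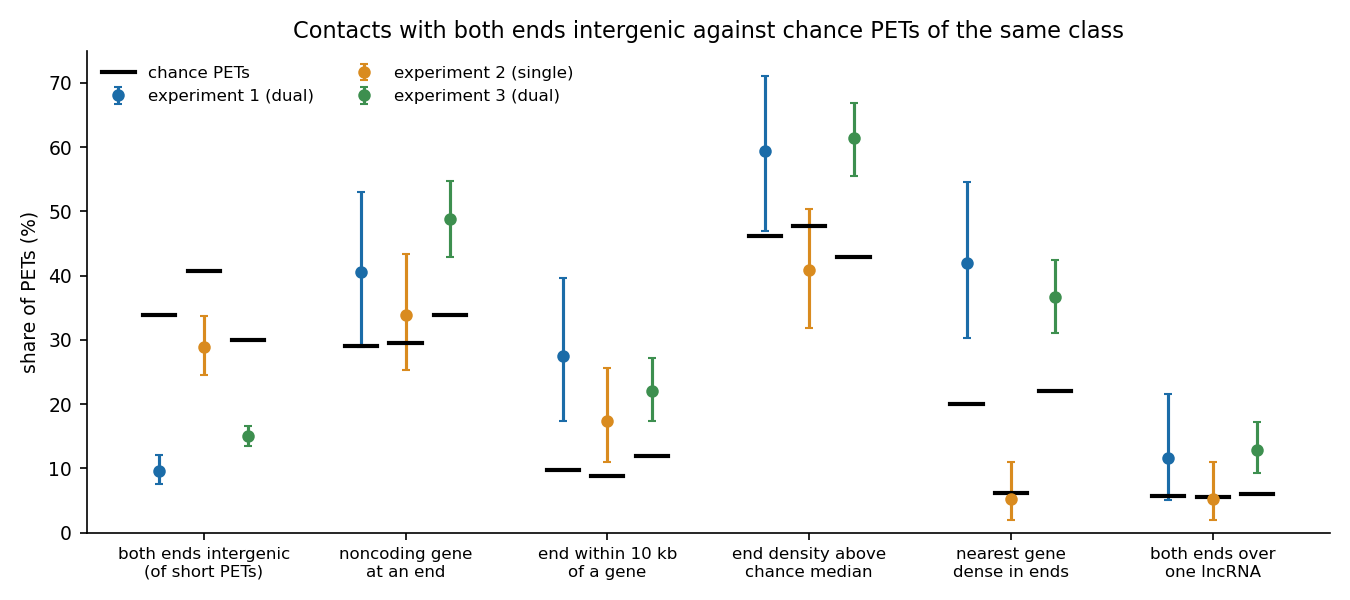
Share of PETs in percent (y axis) for 6 features (x axis) by experiment, with exact 95% binomial intervals as bars and the share among chance PETs as a black line. Experiment 3 was above chance in all features but the first, where 15.02% of short PETs had both ends intergenic against 29.98% by chance.

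Contacts recurred at a few loci. Ends within 10 kb of each other were merged, which gave 863 loci, of which 778 held a single end. Contacts of 2 or more experiments met at 18 loci, and 7 loci had 3 or more contacts. There were 11 pairs of contacts with both ends within 5 kb of each other, 4 between experiments and 7 within one. Such loci and pairs were not counted among chance PETs, so how many the density of ends alone would give is unknown. No contacts were near-duplicates (both ends within 10 bp).

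The locus with the most contacts lay between Wdr5 (a subunit of histone methyltransferase complexes) and Rxra, the retinoid X receptor that pairs with PPARα, LXR and FXR in liver. Its ends at 27596077 to 27599250 on chromosome 2, 77.2 kb from Rxra, took part in 3 contacts of experiment 1 and 1 of experiment 3. A pair of contacts of experiment 1 joined it to 27561444 and 27562134, on the side of Wdr5. The others joined it to 27626977 in experiment 1 and 27626093 in experiment 3, 49.5 kb from Rxra, over 29.7 and 26.8 kb and with different linker codes. The locus held 31, 18 and 20 nuclear ends in experiments 1, 2 and 3, which was 10.9, 2.08 and 3.97 times the nuclear mean. Its partner beside Rxra was at 19.5, 9.002 and 5.24 times the mean.

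A locus between Wnt7b and Ppara, the fatty acid-sensing receptor PPARα, had 2 contacts of experiment 1 and 1 of experiment 3. All 3 ran toward Ppara, over 12.7, 13.2 and 32.4 kb, and ended 50.5, 48.5 and 31.5 kb from it. Nuclear ends at the locus were at 24.2, 3.79 and 9.87 times the mean, above it in every experiment. At the microRNA gene Mir122, the most abundant miRNA of liver, between Nedd4l and Alpk2, experiment 1 joined a point 4.60 kb from Nedd4l to one 27.7 kb from it. Experiment 3 joined points 8.46 and 32.4 kb from Nedd4l, and only its contact ended within 2.5 kb of Mir122. The 2 contacts spanned 23.1 and 24.0 kb and had different linker codes. The Mir122 side held 511, 201 and 203 ends, at 150, 19.5 and 33.8 times the mean, the highest of the loci named in each experiment, and the Nedd4l side was at 9.39, 3.10 and 3.85 times.

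Sik1 (a kinase of cAMP signalling) and Hsf2bp flanked a contact seen in experiments 1 and 3, over 9.04 and 10.0 kb, which began 7.19 and 5.88 kb from Sik1 and ended near the start of Gm30509. The locus was at 1.68, 1.36 and 1.38 times the mean density. A contact of 66.8 kb in experiment 2 and 67.2 kb in experiment 3 near Csf2ra on chromosome 19 had 1 pair of ends 3 bp apart. The far ends lay beyond the last protein-coding gene of the table on that chromosome. The PET of experiment 2 falls in the class of 50 to 100 kb, where its ratio to chance was 1.59. Whether that PET is a chance ligation was not tested. Between Rdm1 and Arl4d, 3 contacts of experiment 1 joined Rnu2-10 to a region with Gm23971 and Gm24950. These are U2 small nuclear RNA genes, a family of similar copies, and the ends lay within 2.5 kb of them. How tags from such copies were placed was not tested, so these 3 contacts are uncertain.

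Other loci with contacts in 2 experiments included Dkk3 to Mical2 (Gm39070, Gm39071), Adra2b to Gpat2 (Gm39923), Phlda1 to Krr1 (Gm30262), Ackr3 to Cops8 (Gm41917), Klf10 to Azin1 (Gm41308), 2 between Cstad and 1700001O22Rik (Gm14488), and 1 beside Sulf2. The experiment 2 contacts at Azin1 (56.7 kb) and Sulf2 (84.7 kb) also belong to the class with a ratio to chance of 1.59. The locus between Chd2 and Fam174b, the partner of Chaserr, was at 5.36, 2.21 and 3.25 times the nuclear mean. Between Raph1 and Cd28 3 contacts of experiment 3 met, at a locus with 4.56, 1.98 and 1.86 times the mean density in experiments 1, 2 and 3.

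**Figure D5:**
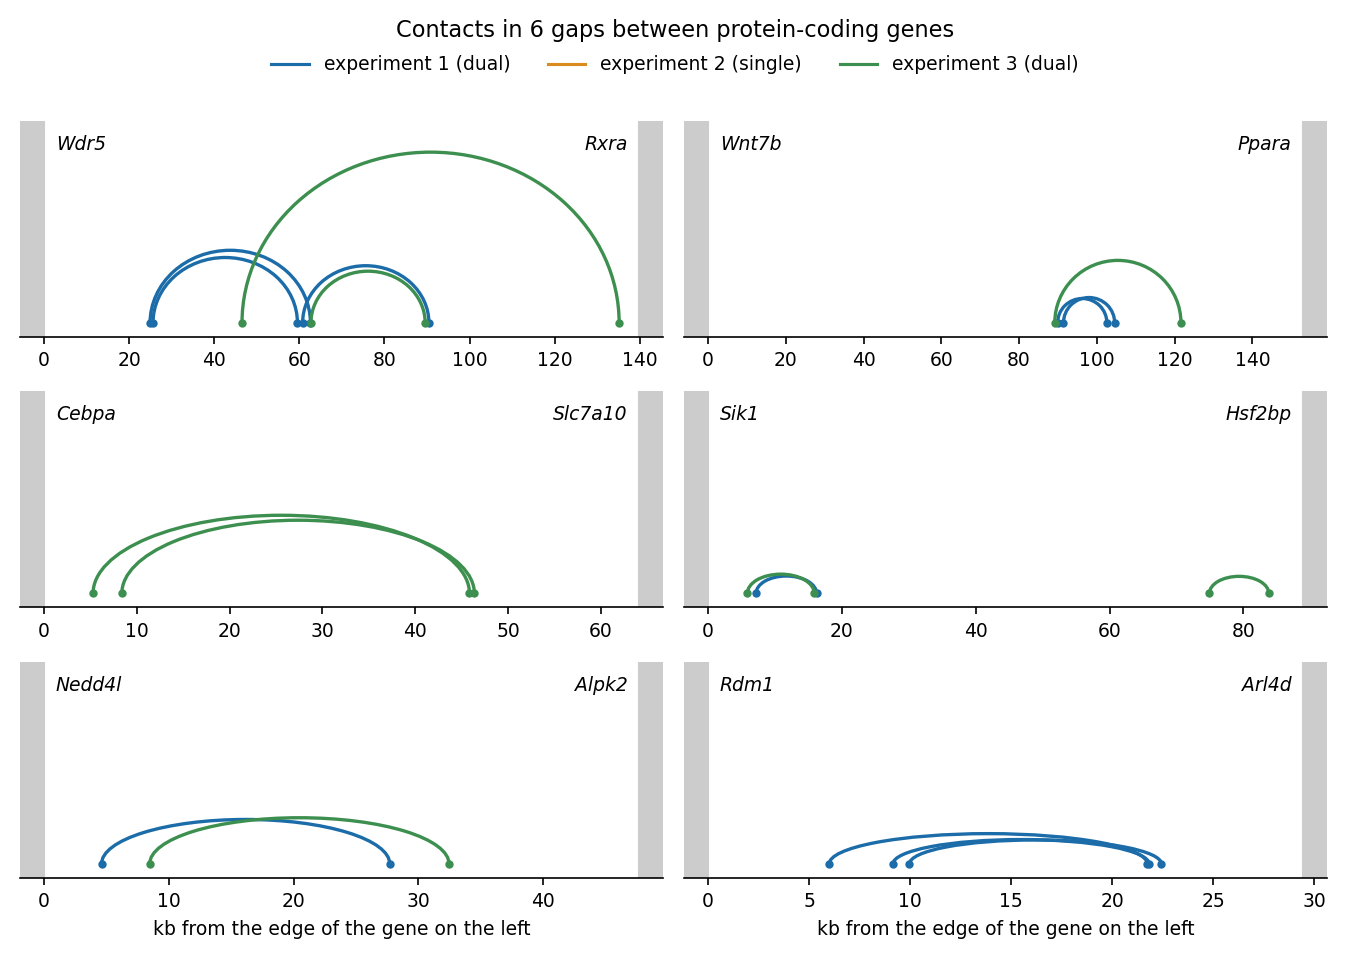
Contacts (arcs, coloured by experiment) in 6 gaps between neighbouring protein-coding genes (grey blocks), on an x axis in kb from the edge of the gene on the left, with height scaled to distance. In the gap between Wdr5 and Rxra, of 139.9 kb, contacts of experiments 1 and 3 join points 60.8 and 62.7 kb from Wdr5 to points 90.4 and 89.6 kb from it.

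Gene lists were described by counts. Of 39 hepatocyte genes, the nearest gene belonged to the list at an end of 8 contacts, against 2.40 by chance, 2 of them in experiment 1, 0 in experiment 2 and 6 in experiment 3. At Cebpa, the C/EBPα gene, 2 contacts of experiment 3 with the same linker code began 5.28 and 8.38 kb from the gene, at or beside Gm51475, and ended 40.6 and 38.0 kb further on, over Gm38988. At Cebpb (C/EBPβ), experiment 3 had a contact of 10.3 kb that spanned the gene, with ends 3.80 and 4.97 kb from it, and experiment 1 had one of 30.3 kb farther off. The urea cycle genes Ass1 and Cps1 had 1 contact each, with the nearest ends 3.75 kb from Ass1 in experiment 3 and 18.4 kb from Cps1 in experiment 1. The contact at Foxa2 lay with both ends over the lncRNA 9030622O22Rik or its 2.5 kb flanks. That at Onecut1 was 150 kb or more from the gene.

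Of 17 immediate-early and stress genes, 2 contacts were nearest to one, against 2.70 by chance. These were Hes1, a repressor downstream of Notch, and Myc. Hes1 was spanned by a contact of 49.9 kb with 1 end 2.79 kb from the gene. At Myc both ends lay over the lncRNA Pvt1 or its 2.5 kb flanks. Of 1465 olfactory and vomeronasal receptor genes, silent in liver, 1 contact was nearest to any (Vmn1r22 and Vmn1r23, in experiment 2), against 4.27 by chance. None of the 479 contacts had 1 of the 21 clock genes as its nearest, which allows a share of up to 0.626%, and 0.561 were given by chance, so a difference was not detectable at this depth.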

How the data were processed

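The authors deposited 1 table without a header, with a row for each PET, that gives experiment, linker and, as other values in bp, the position of each end and a distance, per the values in the file. Reads were aligned to mm10 with Bowtie2, per the submitters' processing notes. Neither filters nor any removal of duplicates is stated in the labels. Genes came from RefSeq on GRCm38.p6 (the same assembly as mm10), with 21887 protein-coding genes.

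PETs with an end off the nuclear chromosomes were left out. Chance PETs were enumerated in full (numba 0.67.0), without PETs at most 8 kb apart, and their number was divided by the number of PETs less 1. The chance share was taken as known. Counts were tested by two-sided exact Poisson tests and shares by two-sided exact binomial tests (scipy 1.17.1) at an adjusted p of 0.05, with Benjamini-Hochberg adjustment over 3 experiments. Intervals are exact (Garwood or Clopper-Pearson). The enumeration was tested on simulated data. PETs carry no molecular identifiers.

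The contacts, gene lists and tests were chosen with earlier results of these data known. Of 23 noncoding genes on a further list, 21 were in the table, and Mir122 and Neat1 had contact ends. The tests of distance shares and between experiments, the dense nearest gene, both ends over 1 lncRNA and the recurring pairs were added after the data were seen. Loci were named where contacts of 2 experiments or 3 contacts met, noncoding genes where 2 contacts ended, list genes wherever a contact was nearest, and contacts by density as the 5 highest and the 5 nearest to the median. Alternatives varied distances, flanks, windows, duplicates, linkers, dense bins and the weighting of chance PETs.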

Additional observations from a re-analysis of the deposited data

Results flagged for a closer look

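Experiments differed in the excess of contacts over chance, by conditional exact binomial tests chosen after the data were seen and adjusted over the 3 pairs. The tests in this section count PETs, so their p-values do not include the spread between libraries. The ratio to chance in experiment 2 was 0.407 times that in experiment 1 (0.299 to 0.556, exact test, adjusted p = 2.2e-08). The ratio in experiment 3 was 2.53 times that in experiment 1 (1.94 to 3.34, exact test, adjusted p = 7.8e-14) and 6.22 times that in experiment 2 (5.00 to 7.78, adjusted p = 8.1e-71).

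The share of contacts with a noncoding gene at an end was 14.9 percentage points higher in experiment 3 than in experiment 2 (Fisher's exact test, adjusted p = 0.024). The share with an end density above the chance median was -18.6 points in experiment 2 relative to experiment 1 (Fisher's exact test, adjusted p = 0.033), and 20.5 points higher in experiment 3 than in experiment 2 (adjusted p = 0.00073). For the share with an end within 10 kb of a gene, the 3 pairs gave an adjusted p of 0.34 each. Fisher's tests compared the shares without regard to chance, and chance differed too. For a noncoding gene at an end it gave 33.9% in experiment 3 and 29.5% in experiment 2. For end density it gave 46.2%, 47.7% and 42.8% in experiments 1, 2 and 3, with different cut-offs (chance medians of 4, 13 and 7). These differences of shares are thus not differences in excess over chance. Depth also differs between the experiments, from 474466 to 1438852 nuclear PETs, and its part in these differences was not tested.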

How the results depend on the processing

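The ratio of contacts to chance stayed above 1 and past the threshold under every alternative run, with ranges of 5.71 to 10.3 (experiment 1), 2.25 to 5.90 (experiment 2) and 14.5 to 31.9 (experiment 3). By linker code it was 6.03 and 6.89 in experiment 1, 4.20 and 2.26 in experiment 2, and 16.2 and 16.9 in experiment 3, for ATGT and TAAG. Of 285 alternative values of 24 results, 248 kept direction and side of the threshold, 9 lost the call, 13 gained one and 15 changed direction. The alternatives with 1 linker code, and all for a dense nearest gene or both ends over 1 lncRNA, were chosen after seeing the data. The causes of the changes were not tested.

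For a noncoding gene at an end, experiment 1 passed the threshold with a minimum distance of 4 kb (37.1%), gene flanks of 1 kb (41.3%) or 5 kb (41.9%) and chance weighted to distance (40.6%), and experiment 2 with a noncoding flank of 5 kb (47.0%), while at 4 kb its share was 28.6%, below chance. An end within 10 kb of a gene lost the call with ATGT alone in experiments 2 (13.2%) and 3 (16.1%).

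For end density, experiment 1 lost the call at 4 kb (46.8%), with a gene flank of 5 kb (56.5%), unshared positions (62.7%), weighted chance (59.4%), a window of 10 kb (62.3%) and each linker code (52.0% and 43.2%), and fell below chance with a window of 1 kb (37.7%). Experiment 2 passed the threshold, below chance, with a window of 1 kb (37.4%) and with TAAG alone (33.8%), and was above chance with one of 10 kb (53.0%).

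The share without a gene between the ends moved above chance at 4 kb in experiments 1 (95.2%), 2 (95.97%) and 3 (95.5%, where it passed the threshold), with unshared positions in experiment 1 (94.9%), and with a gene flank of 5 kb (95.1%) or ATGT alone (92.7%) in experiment 3. With weighted chance it passed the threshold, below chance, in experiments 2 (90.4%) and 3 (90.5%). Both ends over 1 lncRNA passed in experiment 1 at 4 kb (13.7%), with gene or noncoding flanks of 5 kb (12.9% and 14.5%) and with TAAG (15.9%), and was below chance with ATGT (4.00%). In experiment 2 it was above chance and past the threshold at 4 kb (11.4%, adjusted p = 0.0006 by the exact test), and above chance without passing it with a noncoding flank of 5 kb (7.83%) and with ATGT (7.89%). With weighted chance, both ends over 1 lncRNA passed the threshold in experiment 3 only (12.9% against 7.94%, exact binomial test, adjusted p = 0.01). A dense nearest gene was above chance in experiment 2 with a gene flank of 1 kb (8.40%) and with ATGT (23.7%).

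No paired analysis was possible because the table names no library, so leaving out single libraries was not possible either. With 69 contacts in experiment 1, the intervals on its shares are wide, as for a noncoding gene at an end (28.9 to 53.1%).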

Other observations

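Contacts were found on every chromosome but Y, with the most on chromosome 2 (53), chromosome 3 (45) and chromosome 1 (35). On the X chromosome there were 10, and on Y 0. These counts were not set against chromosome length or chance PETs.

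Contact ends also fell at small RNA genes, among them Mir365-2 in experiment 3, over 13.4 kb and 29.4 kb from Rab11fip4. Another was Mir7234 in experiment 2, where both ends lay over Gm10619 or its 2.5 kb flank. The lncRNA Mir99ahg, host of a miRNA cluster, had both ends of a contact of 65.3 kb in experiment 3. The long lncRNA gene A930011G23Rik beside Rasgef1b had both ends of 2 contacts, 1 in experiment 1 and 1 in experiment 3, over 36.5 and 88.2 kb.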
